A study of Arabidopsis thaliana with 18 samples.

Results

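The comparison described here asks whether sesquiα2 rosettes differed from Col-0 rosettes to the same extent at day's end (ED) and at night's end (EN). It used 12 of the 18 RNA-seq libraries of the series, 3 for each genotype at each time point, and 20122 of the 32833 genes in the deposited table. These are the genes with a normalised value of at least 10 in 3 or more of the 12 libraries, a rule that does not look at the difference tested. The quantity tested was the interaction, that is the sesquiα2 minus Col-0 difference at EN minus the same difference at ED, on log2(value + 1). A positive interaction means that a transcript was higher in sesquiα2, relative to Col-0, at EN than at ED, and a negative one means the opposite. All plants were 20-d-old Arabidopsis in soil under equal lengths of light and dark, sampled at 12 h (ED) and 24 h (EN) after dawn, and each library stands for 1 pool of whole rosettes. Col-0 is the wild type. sesquiα2 is a partial loss-of-function mutant with the genotype snrk1α1-/- snrk1α2+/-, made from T-DNA insertions in the Col-0 background. Its seedlings spent their first days on BASTA plates to select the mutants, whereas Col-0 was sown directly on soil, so that genotype and early growth cannot be told apart at either time point.

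SnRK1 is the plant relative of the AMPK and SNF1 kinases, and SnRK1α1 and SnRK1α2 are its catalytic subunits. The kinase is activated when energy is scarce, raises transcripts for catabolism and lowers transcripts for growth. Trehalose 6-phosphate, a sugar phosphate that follows the level of sucrose, inhibits it. In rosettes sucrose is high at ED and low at EN, when starch made in the light has been used up, so that the 2 time points differ in carbon status as well as in the phase of the circadian clock.

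Depth and library checks were as follows. The 12 libraries held 35050877 to 40130783 reads, and the values are scaled to a common total. SnRK1α1 (AT3G01090) lay between 1685 and 1740 in Col-0 and between 1699 and 1749 in the libraries labelled sesquiα2 at ED, so its transcript level does not check the genotype. SnRK1α2 (AT3G29160) was lower in the libraries labelled sesquiα2 at ED (log2 difference −0.55, adjusted p = 0.0178 from limma) and had a difference of −0.14 at EN (adjusted p = 0.498). The interaction of SnRK1α2 had an adjusted p of 0.17. All 5 leaf mesophyll markers were measured at high levels in every library, and only 1 of 7 root markers and 3 of 7 shoot apex and flower markers passed the filter on low values. In bulk tissue a smaller share of a cell type and less RNA per cell cannot be told apart.

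Few genes passed the test for an effect of sesquiα2 that depended on the time of day. A gene was called when its adjusted p for the interaction, from limma and corrected over the 20122 genes by the Benjamini-Hochberg method, was under 0.05. Of the 20122 genes 164 were called, or 0.815%, with 81 positive (0.403%) and 83 negative (0.412%), and 3463 genes (17.2%) had an unadjusted p under 0.05. The lowest adjusted p was 0.000164. The median interaction of all genes was 0.12 on the log2 scale, which came from a median sesquiα2 minus Col-0 difference of 6.09e-04 at ED and 0.10 at EN, and single values read against that shift. Called positive interactions ran from 0.56 to 4.51 with a median of 1.103, and called negative ones from −0.55 to −3.73 with a median of −0.92. Scaling by the median ratio took out the shift and called 46 positive and 126 negative genes. Quantile normalization called 52 and 132, and edgeR's quasi-likelihood test on the recovered reads called 58 and 152. The balance of the directions thus depended on the scaling. All 164 genes kept their sign under each of these 3, and 124, 127 and 138 of them, in the same order, were still called. They were called from these same libraries, so a kept sign was likely beforehand.

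Most called genes did not pass the test between sesquiα2 and Col-0 at both time points. At an adjusted p under 0.05 from limma, 389 genes (1.93%) differed between the genotypes at ED and 556 (2.76%) at EN. Among the 164 genes called for the interaction, 93 passed at EN and not at ED, 45 passed at ED and not at EN, 6 passed at both and 20 at neither. In 141 of the 164 (86%) the estimated difference had opposite signs at ED and EN, compared with 50.6% of all genes tested. These 4 groups of libraries are the ones from which the interaction is computed, so the counts describe the called genes and do not test them again.

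**Figure D1:**
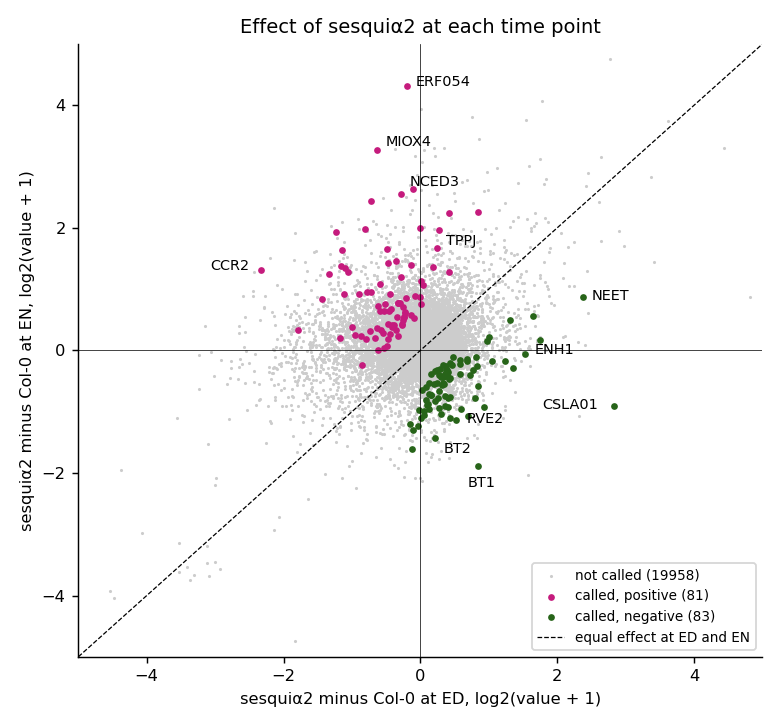
Each point is 1 of 20122 genes, with the sesquiα2 minus Col-0 difference at ED on the x axis and at EN on the y axis, both on log2(value + 1). Grey points were not called, 81 points in magenta had a positive interaction and 83 in green a negative one, the dashed line marks equal effects, and 5 genes lie outside the axes. The called genes lie mainly where the effects at ED and EN have opposite signs, with BT1 (−1.88 at EN) the lowest and ERF054 and MIOX4 the highest of the called genes at EN.

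The number of called genes rested on single libraries. Leaving out Col-0 ED replicate 1 raised it to 1564, of which 1195 were positive and 369 negative, and included all 164 genes. Leaving out sesquiα2 ED replicate 2 gave 252 called genes, and Col-0 EN replicate 1 gave 199. The count fell to 55 when sesquiα2 EN replicate 2 was dropped, to 24 for sesquiα2 ED replicate 3, to 20 for Col-0 ED replicate 2 or Col-0 EN replicate 3, and to 14 for sesquiα2 ED replicate 1. The lowest counts were 9, 8 and 7, for sesquiα2 EN replicate 1, for Col-0 EN replicate 2, and for Col-0 ED replicate 3 or sesquiα2 EN replicate 3. All 164 genes kept the sign of their interaction in each of these 12 fits. Genes called from these same libraries were likely to keep it, so a kept sign, here or in other fits, does not test them again. BT1, BT2, AT2G29670, AT1G52342, CSLA01 and TPPJ were called in all 12, and 17 of the 164 in at least 6. Every other named gene that was called lost its call in 3 or more of the 12 fits.

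**Figure D2:**
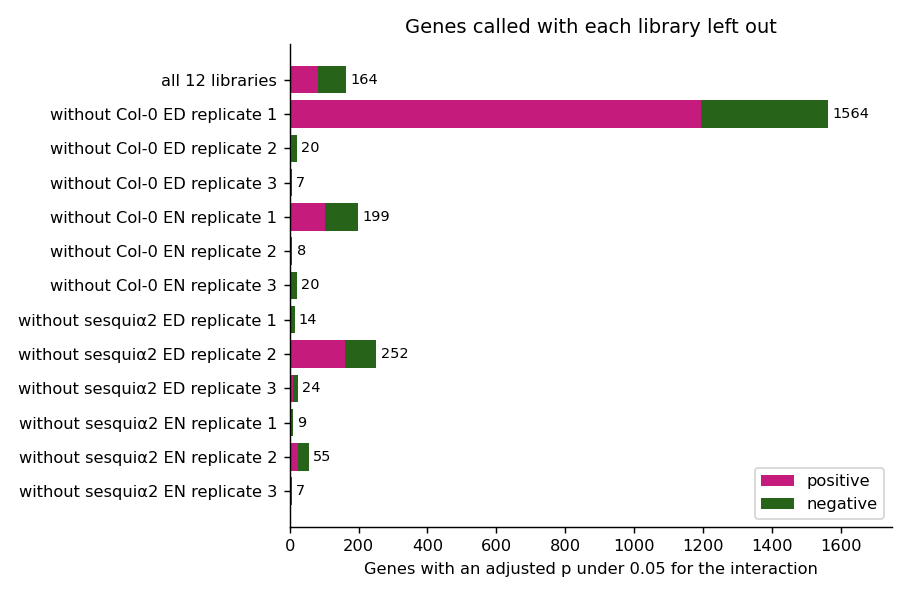
Bars give the number of genes called for the interaction at an adjusted p under 0.05 with all 12 libraries and with each library left out in turn, split into positive (magenta) and negative (green). The count ranged from 7, with Col-0 ED replicate 3 dropped, to 1564, with Col-0 ED replicate 1 dropped.

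Libraries at ED stood apart from each other in defence transcripts in both genotypes. The summed value of 14 genes of salicylic acid defence, the hormone pathway against biotrophic pathogens that includes the marker PR1, was 27130 in Col-0 ED replicate 1, 207000 in replicate 2 and 174800 in replicate 3. It was 15000, 30350 and 100300 in the 3 sesquiα2 libraries at ED, and between 45500 and 74900 in the 6 libraries at EN. In these sums the replicates of each genotype at ED thus differed more from each other than those of any group at EN did. Beyond defence genes, Col-0 replicate 1 stood furthest from its group at both time points. The chi-square of the reads per degree of freedom was 94.1 and 59.1 for its pairs at ED, against 13.4 for replicates 2 and 3. At EN the values were 65.9 and 76.3, against 7.88. Pairs of sesquiα2 libraries had 11.9 to 40.5. The summed value of 16 rapid stress and touch genes was 6484, 19780 and 13700 in Col-0 and 5504, 7459 and 10100 in sesquiα2 at ED, and 19890 to 29470 at EN. When Col-0 ED replicates 2 and 3 were both left out, a choice made after these values were seen, 11 genes were called, 8 of them among the 164, and all 164 kept their sign.

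**Figure D3:**
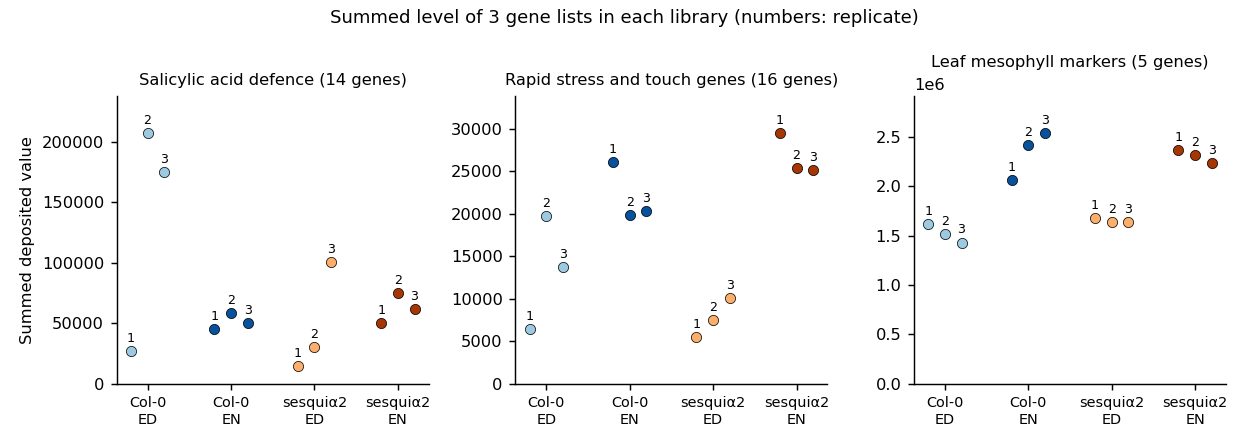
Dots give the summed deposited value of 3 gene lists in each library, with the replicate number above each dot and each y axis starting at 0. Col-0 ED replicates 2 and 3 had the highest sums of salicylic acid defence genes (207000 and 174800), whereas the sums of 5 leaf mesophyll markers lay between 1432000 and 2541000 in the 12 libraries.

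BT1 and BT2, which encode BTB and TAZ domain scaffold proteins that respond to nitrate and sugars, had a smaller rise at EN in sesquiα2 than in Col-0. BT1 (AT5G63160, chromosome 5 of TAIR10.1, 25333172 to 25335570) had values of 454.5, 378.6 and 404.4 in Col-0 and 874.3, 651.8 and 711 in sesquiα2 at ED. At EN the values were 7104, 10210 and 7916 in Col-0 and 2413, 2261 and 2095 in sesquiα2. All sesquiα2 libraries were above all Col-0 libraries at ED and below them at EN. The log2 difference was 0.85 at ED (adjusted p = 0.0116 from limma) and −1.88 at EN (adjusted p = 2.73e-05), and the interaction was −2.73 (SE 0.20, adjusted p = 0.000164). Of the 6 called genes that passed at both time points, BT1, AT2G29670, OXS3, AT1G52342 and MS2 did so in opposite directions, and HEMA1 was higher in sesquiα2 at both. BT2 (AT3G48360, chromosome 3, 17907767 to 17910738) had 2268, 2491 and 2552 in Col-0 and 2637, 2880 and 2943 in sesquiα2 at ED, and 13110, 12420 and 9792 against 4577, 3972 and 4432 at EN. The groups were close at ED and well apart at EN. Its interaction was −1.65 (SE 0.16, adjusted p = 0.00182), and the adjusted p was between 3.35e-04 and 0.018 over all alternatives, against 1.11e-04 and 0.00644 for BT1.

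Of the other genes called in every fit with a library left out, 3 had a negative interaction and 1 a positive one. AT2G29670 had 1736, 2662 and 2337 in Col-0 and 3836, 3194 and 3748 in sesquiα2 at ED, and 6665, 7538 and 6514 against 3665, 2963 and 3197 at EN. Its EN minus ED difference was 1.64 on the log2 scale in Col-0 and −0.13 in sesquiα2. The interaction was −1.77 (SE 0.21, adjusted p = 0.00451 from limma). AT1G52342, named after its values were seen, behaved alike with an interaction of −1.54 (SE 0.18, adjusted p = 0.00451). CSLA01 (AT4G16590), a member of the cellulose synthase-like A family of mannan synthases, had 147.5, 108 and 117.1 in Col-0 and 916.1, 600.8 and 1245 in sesquiα2 at ED. At EN all 6 libraries had between 2 and 6 reads, so its interaction of −3.73 (adjusted p = 0.00451) rests on the difference at ED (2.83, adjusted p = 6.68e-04), and its size depends on the pseudocount, because both genotypes had so few reads at EN. Its adjusted p was 0.0765 at most over the alternatives. TPPJ (AT5G65140, chromosome 5, 26019457 to 26022380), a trehalose-6-phosphate phosphatase, which converts trehalose 6-phosphate to trehalose, was the positive one. It had 353.9, 366.8 and 378.1 in Col-0 and 414.4, 476.2 and 406.3 in sesquiα2 at ED, and 223.1, 242.8 and 211.3 against 760.7, 647.9 and 753.4 at EN. TPPJ therefore fell from ED to EN in Col-0 and rose in sesquiα2, with log2 differences of −0.70 and 0.74. The interaction was 1.43 (SE 0.16, adjusted p = 0.00451), and the adjusted p was at most 0.0587 over all alternatives.

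**Figure D4:**
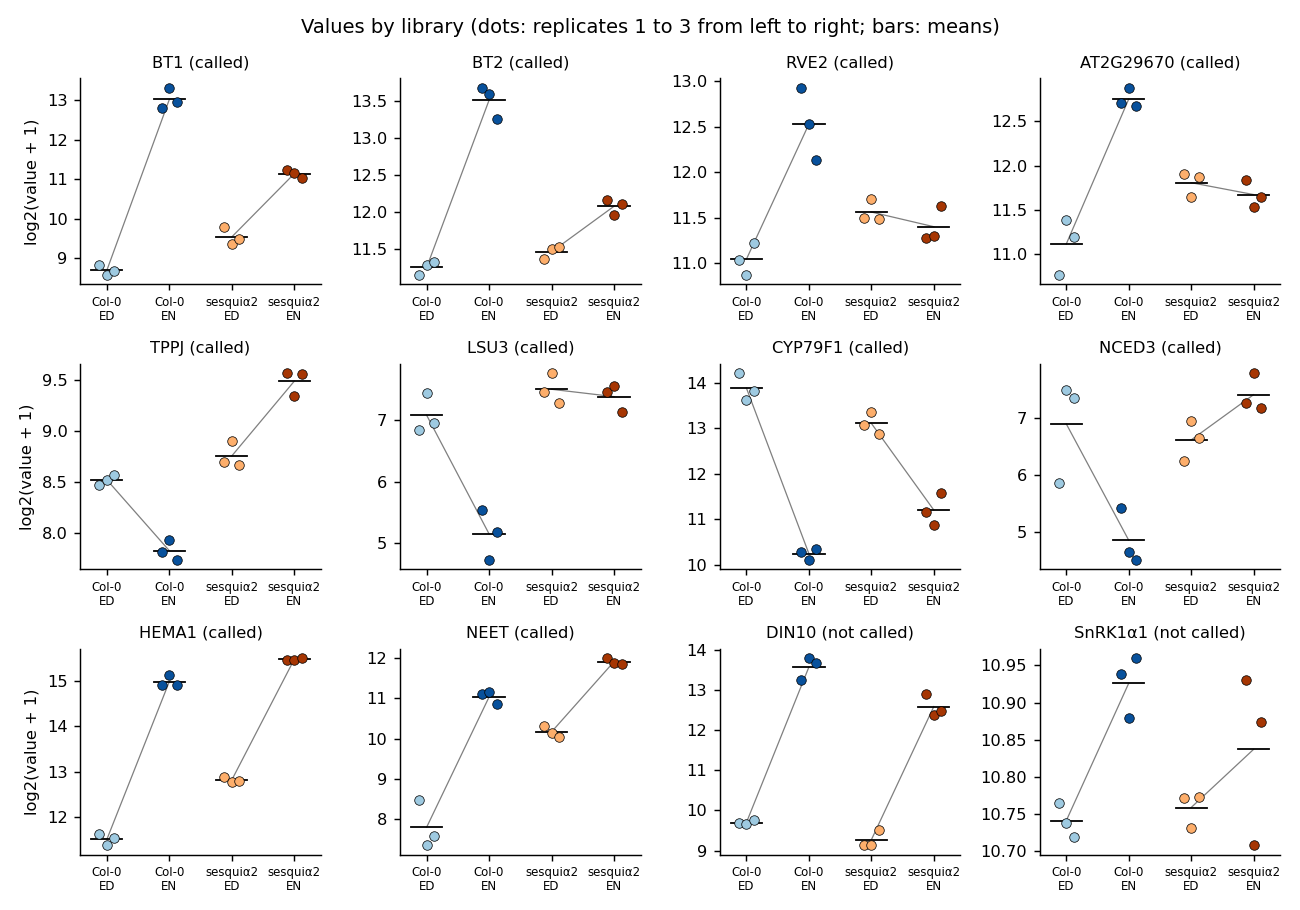
Each panel shows 1 gene, with log2(value + 1) on the y axis (each panel has its own range) and the 4 groups on the x axis. Dots are the 3 libraries of a group, bars their means, and grey lines join ED and EN of a genotype. In BT1 and BT2 the rise from ED to EN was smaller in sesquiα2, TPPJ changed in opposite directions, and SnRK1α1 lay between 1672 and 1991 in all 12 libraries.

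Short sequence motifs were searched on both strands of 300 bases around the annotated start (250 before and 50 after) of 19971 of the 20122 genes, in the TAIR10.1 genome of RefSeq. The I-box core GATAAG, a light-regulation element of plant promoters, was found in 14.8% of all these windows, in 33.7% of the 83 called genes with a negative interaction and in 23.5% of the 81 with a positive one. The G-box CACGTG, bound by bZIP and bHLH factors, was found in 8.72% of all windows, 6.02% of the negative and 14.8% of the positive genes. The evening element AAAATATCT was in 3.01%, 3.61% and 4.94%, in the same order, the CCA1-binding site AAAAATCT in 7.99%, 8.43% and 3.7%, the telo-box AAACCCTA in 5.59%, 3.61% and 2.47%, and GAGAC, the core of a sulfur-responsive element, in 32.4%, 33.7% and 30.9%. These shares are descriptions, and a match is not a binding site. The 250 bases before the start are shown for 4 negative genes that hold an I-box and 2 positive genes that hold a G-box. Both motifs were picked after their shares were seen. The I-box share was above that of all genes in both directions. CSLA01, BT1, RVE2 and RBCS2B, with negative interactions, also hold a G-box, and that of BT1 lies outside the 250 bases shown. Capitals mark each match to a motif of 6 or more letters on either strand, and CTTATC is the I-box read from the other strand.
BT1, minus strand, chr5:25335571-25335820: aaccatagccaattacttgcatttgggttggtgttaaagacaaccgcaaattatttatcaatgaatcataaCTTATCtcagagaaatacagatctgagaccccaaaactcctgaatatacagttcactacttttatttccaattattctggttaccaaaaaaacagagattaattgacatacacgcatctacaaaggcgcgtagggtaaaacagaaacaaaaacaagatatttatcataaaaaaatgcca
RVE2, minus strand, chr5:14753089-14753338: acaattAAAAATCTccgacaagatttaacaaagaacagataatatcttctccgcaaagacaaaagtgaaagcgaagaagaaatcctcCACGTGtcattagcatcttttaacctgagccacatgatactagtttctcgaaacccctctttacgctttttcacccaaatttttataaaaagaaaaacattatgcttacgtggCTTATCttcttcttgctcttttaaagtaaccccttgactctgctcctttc
AT1G54740, plus strand, chr1:20430519-20430768: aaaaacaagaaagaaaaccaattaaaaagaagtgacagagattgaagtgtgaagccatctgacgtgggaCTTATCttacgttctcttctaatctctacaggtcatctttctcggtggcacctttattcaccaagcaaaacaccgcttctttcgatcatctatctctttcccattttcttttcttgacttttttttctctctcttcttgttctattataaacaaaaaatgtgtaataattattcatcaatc
AT3G06070, minus strand, chr3:1832191-1832440: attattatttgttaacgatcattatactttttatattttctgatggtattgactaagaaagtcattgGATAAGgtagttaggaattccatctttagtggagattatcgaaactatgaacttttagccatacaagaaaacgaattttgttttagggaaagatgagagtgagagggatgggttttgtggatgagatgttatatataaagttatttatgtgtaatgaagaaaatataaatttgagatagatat
TPPJ, minus strand, chr5:26022381-26022630: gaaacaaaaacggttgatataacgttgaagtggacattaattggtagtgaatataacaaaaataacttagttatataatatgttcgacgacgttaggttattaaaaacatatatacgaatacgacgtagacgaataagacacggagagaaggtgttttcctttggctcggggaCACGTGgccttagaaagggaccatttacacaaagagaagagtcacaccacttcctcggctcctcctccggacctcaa
LSU3, minus strand, chr3:18373148-18373397: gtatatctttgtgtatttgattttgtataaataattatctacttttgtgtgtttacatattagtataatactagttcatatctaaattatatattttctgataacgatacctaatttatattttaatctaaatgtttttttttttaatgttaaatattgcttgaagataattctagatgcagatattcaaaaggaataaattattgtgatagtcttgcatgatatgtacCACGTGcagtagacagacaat
The first of the I-boxes starts at −179 in BT1, −181 in AT1G54740, −183 in AT3G06070 and −50 in RVE2, counted from the annotated start. The G-boxes within the bases shown start at −77 in TPPJ, −21 in LSU3 and −163 in RVE2, which also has a CCA1-binding site at −244.

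AT1G54740 and AT3G06070, both chosen after their values were seen, were far higher at EN than in the evening in both genotypes. AT3G06070 had 313.7, 377.7 and 321.2 in Col-0 and 348.3, 357.1 and 310.6 in sesquiα2 at ED, and 3944, 4114 and 4105 against 2018, 1975 and 1683 at EN. The genotypes overlapped at ED and were apart at EN, and the interaction was −1.11 (SE 0.15, adjusted p = 0.0156 from limma). AT1G54740 had an interaction of −1.32 (adjusted p = 0.0194).

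Among 17 SnRK1-induced and starvation markers, no gene was called for the interaction (limma), 7 had an unadjusted p under 0.05 (17.2% of all genes did), and only 2 lay above the median of all genes. Their median was −0.55 for the interaction, −0.06 at ED and −0.40 at EN, against 0.12, 6.09e-04 and 0.10 for all genes. At EN 4 were lower in sesquiα2 (DRM2, BGAL4, PYL5 and DIN10), where 2.76% of all genes differed in either direction. At ED 2 were lower (BGAL4 and PYL5), where 1.93% of all genes differed. DIN10 (AT5G20250), a raffinose synthase-like gene induced by darkness, had 824.6, 803.9 and 861.1 in Col-0 and 560.7, 567.2 and 734.6 in sesquiα2 at ED, and 9741, 14180 and 12930 against 7671, 5311 and 5687 at EN. Its values were lower in every sesquiα2 library at both time points, and the interaction of −0.55 had an adjusted p of 0.249. BGAL4, a beta-galactosidase, had −0.87 at ED and −1.67 at EN, with an interaction of −0.80 (adjusted p = 0.149). PYL5, an abscisic acid (ABA) receptor, had −0.64 and −1.34, with an interaction of −0.69 (adjusted p = 0.103, and 0.0291 without Col-0 ED replicate 1). DRM2, a dormancy-associated gene, had the most negative interaction of the list, −1.34, from a difference of 0.0046 at ED and −1.34 at EN, with an adjusted p of 0.053. TPS8, TPS9, TPS10 and TPS11, class II trehalose-6-phosphate synthase genes, had interactions of −0.05, 0.03, 0.35 and 0.0021, and that of TPS10 had an unadjusted p of 0.0306 (adjusted p = 0.235).

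Of 9 trehalose-6-phosphate phosphatases tested, 7 passed the test as higher in sesquiα2 at EN (2.76% of all genes passed there in either direction) and 1 at ED (1.93%), and the median difference was 1.33 at EN and 0.40 at ED. For the interaction, which tests the difference between the time points, 1 was called, TPPJ (0.815% of all genes were), 4 had an unadjusted p under 0.05 (17.2%), and the list's median was 0.81, with 7 of 9 above the median of all genes. TPPG had the largest interaction, 2.14 (adjusted p = 0.0919 from limma). It had 468.9, 1554 and 1437 in Col-0 and 658.2, 598.2 and 1064 in sesquiα2 at ED, and 305.2, 386.9 and 291.5 against 1025, 1056 and 1086 at EN. The high values of Col-0 ED replicates 2 and 3 were the ones in which defence transcripts were also high, and without replicate 1 the adjusted p was 0.0018. TPPD had an interaction of 1.196 (adjusted p = 0.233) and TPPH of 0.71 (adjusted p = 0.297). TPPA, in contrast, was higher in sesquiα2 at both time points, by 0.47 at ED and 0.43 at EN, and TPPI had differences of 1.60 and 1.69 that passed at neither.

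Sulfur-deficiency genes included called members with a positive interaction. Of 17 tested, 3 were called, all positive (LSU3, GGCT2;1 and APR1), against 0.815% of all genes, and 10 had an unadjusted p under 0.05, against 17.2%. The median interaction was 0.61, and 15 of 17 lay above the median of all genes. At EN 12 were higher in sesquiα2 and 1 lower (2.76% of all genes differed there), and at ED 5 and 1 (1.93%). LSU3 (AT3G49570), one of the small LSU proteins induced by low sulfur, had 113.6, 174.6 and 123.6 in Col-0 and 175.7, 218.4 and 155.2 in sesquiα2 at ED, and 45.43, 25.28 and 35.19 against 175.3, 188.3 and 140.3 at EN. The genotypes overlapped at ED and were far apart at EN, because LSU3 fell by night in Col-0 (−1.94 on the log2 scale) and had a difference of −0.12 in sesquiα2. Its interaction was 1.82 (SE 0.36, adjusted p = 0.0431 from limma). GGCT2;1 (AT5G26220), an enzyme of glutathione breakdown, had an interaction of 1.43 (SE 0.28, adjusted p = 0.0444), with 19.32, 19.61 and 13.79 in Col-0 and 81.24, 85.86 and 94.33 in sesquiα2 at EN. APR1 (AT4G04610), an adenosine-5'-phosphosulfate reductase of sulfate assimilation, had 1.101 (SE 0.18, adjusted p = 0.027), while its relatives APR3 and APR2 had 0.42 and −0.31. SDI1 and LSU1, in contrast, were higher in sesquiα2 at both time points, SDI1 by 1.67 and 2.02 and LSU1 by 1.43 and 2.17, and their interactions of 0.36 (adjusted p = 0.598) and 0.75 (adjusted p = 0.349) were not called. The sulfate transporter SULTR3;1 (1.103, adjusted p = 0.048) and the methionine synthase MS2 (1.34, adjusted p = 0.0194) were also called, and were chosen after their values were seen.

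Genes of aliphatic glucosinolate synthesis, the pathway from methionine to sulfur-rich defence compounds, had positive interaction values, most of which did not pass the test. Of 19 tested, 3 were called (CYP79F1, CYP79F2 and CYP83A1), against 0.815% of all genes, 16 had an unadjusted p under 0.05, against 17.2%, and all 19 lay above the median of all genes. The median was 1.098 for the interaction, −0.46 at ED and 0.61 at EN. CYP79F1 (AT1G16410), a cytochrome P450 that commits chain-elongated methionine to the pathway, had 19080, 12580 and 14470 in Col-0 and 8643, 10560 and 7569 in sesquiα2 at ED, and 1247, 1097 and 1298 against 2294, 1878 and 3032 at EN. All sesquiα2 libraries lay below Col-0 at ED and above it at EN. Its interaction was 1.74 (SE 0.27, adjusted p = 0.0261 from limma), since it fell by 3.64 on the log2 scale from ED to EN in Col-0 and by 1.91 in sesquiα2. Its neighbour CYP79F2 (1.38, adjusted p = 0.048) is a close copy, and reads could be split between them. CYP83A1, the next P450 of the pathway, had 1.098 (adjusted p = 0.048). CYP83A1 lost its call with median-ratio scaling (adjusted p = 0.055) and edgeR (0.051), and CYP79F2 with quantile normalization (0.0688). Side-chain elongation genes had like values without being called, with 1.37 for BCAT4, 0.996 for MAM1, 1.34 for IPMI1 and 1.45 for the transporter BAT5. The regulators MYB28 and MYB29 had 0.21 and 0.77 and the glucosyltransferase gene UGT74C1 had 0.21, and these 3 also missed an unadjusted p of 0.05. Dropping Col-0 ED replicate 1 gave a list median of 0.93, and dropping replicates 2 and 3 gave 1.48.

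**Figure D5:**
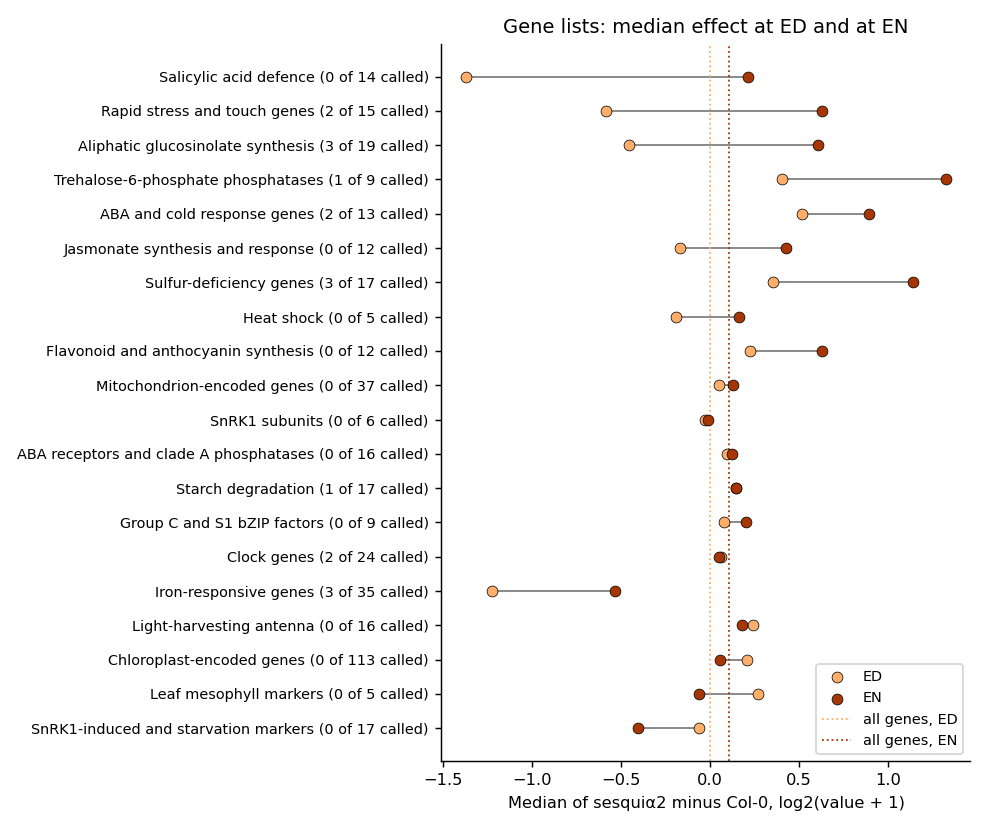
For each gene list shown the light dot gives the median sesquiα2 minus Col-0 difference over tested members at ED and the dark dot that at EN, on log2(value + 1), with dotted lines for the medians of all genes. Lists are ordered by their median interaction. Salicylic acid defence moved from −1.37 at ED to 0.21 at EN, aliphatic glucosinolate synthesis from −0.46 to 0.61, and starvation markers from −0.06 to −0.40.

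Many iron-responsive genes differed between the genotypes at both time points, and their interactions went both ways. Of 35 tested, 20 were lower and 7 higher in sesquiα2 at ED (1.93% of all genes differed there), and 15 and 6 at EN (2.76%). The median interaction was −0.07, 3 genes were called, all negative, against 0.815% of all genes, and 11 had an unadjusted p under 0.05, against 17.2%. HEMA1 (AT1G58290), the glutamyl-tRNA reductase that starts chlorophyll and haem synthesis, had 3136, 2659 and 2947 in Col-0 and 7492, 7026 and 7097 in sesquiα2 at ED, and 30590, 36020 and 30690 against 44750, 45240 and 46330 at EN. It was higher in sesquiα2 at both time points, by 1.31 at ED and 0.49 at EN, and the interaction was −0.82 (SE 0.13, adjusted p = 0.027 from limma). NEET (AT5G51720), an iron-sulfur protein, had differences of 2.37 at ED and 0.88 at EN, and FER1 (AT5G01600), the iron store ferritin, 1.65 and 0.56. Their interactions were −1.49 (adjusted p = 0.0494) and −1.09 (adjusted p = 0.048), and each was called in only 1 of the 12 fits with a library left out. The zinc and iron transporters ZIP5 and IRT3 had positive interactions of 1.68 (adjusted p = 0.0961) and 1.56 (adjusted p = 0.0922), with differences of −2.80 and −2.53 at ED and −1.12 and −0.97 at EN. In Col-0 at ED, ZIP5 had 951.1, 3045 and 1634 and IRT3 2113, 5977 and 2830, so that replicate 2 was the highest for both. The nicotianamine synthases NAS1 and NAS3 had 0.79 (adjusted p = 0.0992) and 1.31 (adjusted p = 0.106) and the zinc transporter ZIF1 had 0.92 (adjusted p = 0.0827). FSD1, the iron superoxide dismutase, was higher in sesquiα2 by 5.72 at ED and 6.20 at EN, with an interaction of 0.48 (adjusted p = 0.763). AT3G01345, which is not in the list of iron-responsive genes, had differences of 10.21 at ED and 9.97 at EN. Its interaction was −0.24 (adjusted p = 0.743).

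Of 24 clock genes, 2 were called for the interaction, RVE2 and GI (0.815% of all genes were), and 8 had an unadjusted p under 0.05 (17.2%). None passed the test between the genotypes at ED, and 3 did at EN (2.76% of all genes), namely RVE2, GI and LNK1, a coactivator of clock genes (0.61, adjusted p = 0.0197 from limma). ELF4 and PRR5 had interactions of −1.11 and 1.08 that were not called. RVE2 (AT5G37260), a MYB-like relative of CCA1, had 2092, 1867 and 2392 in Col-0 and 2893, 3326 and 2859 in sesquiα2 at ED, and 7793, 5890 and 4488 against 2471, 2519 and 3158 at EN. It rose by 1.49 from ED to EN in Col-0 and had a difference of −0.16 in sesquiα2, and the interaction was −1.65 (SE 0.25, adjusted p = 0.0237 from limma). GI (AT1G22770), which acts in the clock and in flowering, had an interaction of 1.36 (adjusted p = 0.0471), but its level at EN was low, with 5.789, 6.236 and 6.827 in Col-0 and 14.04, 13.65 and 10.74 in sesquiα2. GI lost its call with median-ratio scaling (adjusted p = 0.0622), quantile normalization (0.137) and edgeR (0.108). The core genes CCA1, LHY and TOC1 had interactions of −0.24, −0.11 and 0.19, none of them called, although CCA1 went from a mean of 67.5 at ED to 26482 at EN in Col-0. Starch degradation genes likewise had a median interaction of −0.02. BAM3 (AT4G17090), the main plastid beta-amylase of leaves, was the 1 gene called among 17 (0.815% of all genes were). Of the 17, 2 had an unadjusted p under 0.05 (17.2%). BAM3 had 22820, 24760 and 24950 in Col-0 and 41380, 31040 and 37020 in sesquiα2 at ED, and 26780, 40030 and 34410 against 25520, 26590 and 24720 at EN. The sesquiα2 libraries were above Col-0 at ED and below it at EN. The differences passed at neither time point (adjusted p = 0.0567 at ED and 0.174 at EN from limma). The interaction was −0.96 (SE 0.20, adjusted p = 0.048, and 0.0566 with median-ratio scaling).

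The lists of ABA and cold response, rapid stress, jasmonate and salicylic acid defence genes had medians above that of all genes. For 16 ABA receptors and clade A phosphatases the median was −0.0063, with none called and 6 above the median of all genes. Of these 16 genes, 6 had an unadjusted p under 0.05, against 17.2% of all genes. At EN 4 passed as higher and 5 as lower in sesquiα2 (2.76% of all genes differed there), and at ED 2 passed as lower (1.93%). Of 13 ABA and cold response genes, 2 were called, NCED3 and ERD10, against 0.815% of all genes, 5 had an unadjusted p under 0.05, against 17.2%, and 11 lay above the median of all genes, with a list median of 0.75. NCED3 (AT3G14440), the rate-limiting enzyme of ABA synthesis, had 56.84, 180.6 and 162 in Col-0 and 75.26, 122.2 and 99.64 in sesquiα2 at ED, and 41.59, 24.08 and 21.67 against 152.7, 221.4 and 144.2 at EN. The genotypes overlapped at ED and were apart at EN. Its interaction was 2.85 (SE 0.58, adjusted p = 0.048 from limma), and that of the dehydrin gene ERD10 was 0.75 (SE 0.15, adjusted p = 0.048). ERD10 lost its call with median-ratio scaling (adjusted p = 0.119), quantile normalization (0.0663) and edgeR (0.0998). The cold-regulated genes COR15A and KIN1 were higher in sesquiα2 at EN by 2.98 and 3.45, with interactions of 1.87 and 2.59 that were not called. Of 15 rapid stress and touch genes, 1 was called positive and 1 negative, against 0.815% of all genes called in either direction. SZF1, a zinc finger gene, had 1.67 (adjusted p = 0.0433) and ERF107, an ethylene response factor, had −1.08 (adjusted p = 0.038). Of the 12 fits with a library left out, SZF1 was called in 1 and ERF107 in 3. In this list 8 genes had an unadjusted p under 0.05, against 17.2% of all genes. Its median was 1.21, and 0.36 without Col-0 ED replicates 2 and 3. None of 12 jasmonate genes was called, with a median of 0.70 and 4 genes with an unadjusted p under 0.05, against 17.2% of all genes.

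Salicylic acid defence had the most positive median of the lists, 1.60, with none of its 14 genes called and all 14 above the median of all genes. The value depended on the Col-0 libraries at ED. Leaving out Col-0 ED replicate 1 gave a median of 2.50, leaving out replicate 2 gave 1.003, and leaving out both replicates 2 and 3 gave −0.06. PR1 had a difference of −1.69 at ED and −0.27 at EN. An unadjusted p under 0.05 was found for 3 of the 14 genes, close to the 17.2% of all genes. A few defence genes outside the list were called, and were chosen after their values were seen. WRKY54, a relative of WRKY70, had 3712, 4251 and 3803 in Col-0 and 1653, 2291 and 2160 in sesquiα2 at ED, and 755.4, 701.3 and 737.3 against 871.1, 735.8 and 1024 at EN. In this gene the Col-0 libraries at ED lay close together, with replicate 1 the lowest, and the interaction was 1.21 (SE 0.20, adjusted p = 0.027 from limma). It was called in 4 of the 12 fits with a library left out. Replicate 1 was also the lowest Col-0 library at ED in AT5G03350 (13640, 19700 and 19720), AT3G48080, NPR4, CRK10 and EP1. These were called genes chosen in the same way. In ACL, also chosen so, replicate 1 was the highest (3876, 3222 and 3500). The part of the high defence libraries in these results was not tested.

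The 10 largest positive interactions among called genes with a mean of at least 50 in 1 or more groups were in genes of low to moderate level. MIOX4 (AT4G26260), a myo-inositol oxygenase, had 3.766, 7.96 and 5.651 in Col-0 and 3.051, 2.808 and 3.914 in sesquiα2 at ED, and 18.35, 23.5 and 8.996 against 222.5, 121.1 and 157.1 at EN. The genotypes overlapped at ED and were far apart at EN, and the interaction was 3.91 (SE 0.60, adjusted p = 0.0261 from limma). CCR2 (AT1G80820), a cinnamoyl-CoA reductase, had 38.97, 88.46 and 43.14 in Col-0 and 3.139, 13.35 and 19.62 in sesquiα2 at ED, and 25.11, 20.88 and 24.41 against 61.68, 44.93 and 76.78 at EN. It was below Col-0 in every sesquiα2 library at ED and above it at EN, with an interaction of 3.65 (adjusted p = 0.048). PORA (AT5G54190), a protochlorophyllide oxidoreductase, had 124.4, 108 and 115.3 in Col-0 and 41.71, 66.02 and 48.82 in sesquiα2 at ED, and 28.03, 17.9 and 25.37 against 94.8, 36.19 and 69.75 at EN, with an interaction of 2.53 (adjusted p = 0.038). PORA fell by 2.26 on the log2 scale from ED to EN in Col-0, and its EN minus ED difference in sesquiα2 was 0.27. The others were AT1G56710 (3.15), NCED3, AT1G02460 (2.78, adjusted p = 0.0529 with median-ratio scaling and 0.0842 with quantile normalization), AT2G18193 (2.78), the NAC factor gene NAC096 (2.73), the carboxylesterase gene CXE17 (2.58) and AT3G27970 (2.45). ERF054, with 4.51 the highest of all called genes, had at most 4 reads in each Col-0 library at EN and a mean below 50 in all groups.

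The 10 largest negative interactions included genes of moderate to high level. OXS3 (AT5G56550), a gene of oxidative stress tolerance, had 317.4, 387.6 and 400.9 in Col-0 and 574.9, 772.7 and 577.2 in sesquiα2 at ED, and 3733, 3363 and 2583 against 2034, 1644 and 1903 at EN. The genotypes were apart in opposite directions at the 2 time points, by 0.79 and −0.78, and the interaction was −1.57 (SE 0.23, adjusted p = 0.0194 from limma). RR16 (AT2G40670), a type-A response regulator of cytokinin signalling, had an interaction of −1.85 (SE 0.32, adjusted p = 0.0313), with 1666, 1046 and 850.2 in Col-0 and 536.9, 594.2 and 687.7 in sesquiα2 at EN. ENH1 (AT5G17170), a plastid rubredoxin-like protein, passed the test at ED and not at EN, with 4225, 2722 and 3419 in Col-0 against 11030, 8603 and 10010 in sesquiα2, and had −1.58 (adjusted p = 0.027). AT5G59400 (−1.59) and AT2G29300 (−1.64), one of a cluster of tropinone reductase-like genes in which reads could be shared, were also higher in sesquiα2 at ED, by 1.75 and 1.36. AT1G56710, CCR2, AT5G59400, BAM3, APR1 and FER1 each overlap a gene on the other strand, and whether the counting kept the strands apart is not stated. The galactosidase gene BGAL1, the vacuolar sugar transporter gene SWEET2, the Calvin cycle regulator gene CP12-2 and the Rubisco small subunit gene RBCS2B, chosen after their values were seen, were also called, with −1.21, −0.89, −1.11 and −0.74. RBCS2B lost its call with median-ratio scaling (adjusted p = 0.0527) and quantile normalization (0.0789).

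Most called genes changed less between ED and EN in sesquiα2 than in Col-0, with a smaller difference of the same sign in 100 of 164 (61%), against 49.6% of all genes. Of the 83 genes with a negative interaction, 73 had a higher level at EN in Col-0, with a median difference of 1.38, and the median in sesquiα2 was 0.40. Of the 81 with a positive interaction, 8 were higher at EN in Col-0, with a median of −1.43, and the median in sesquiα2 was −0.15. The Col-0 libraries enter both the interaction and this sorting. The direction of the change from ED to EN was therefore looked up in the 6 libraries of the overexpression line SnRK1α1-OE, which enter neither. They cannot show whether the change was smaller in sesquiα2, which rests on the libraries that gave the calls. In SnRK1α1-OE 74.7% of the negative and 22.2% of the positive genes were higher at EN, against 48% of all genes with a value. The medians in that line were 0.89 and −0.81. Genes that differed between ED and EN in SnRK1α1-OE by at least 1 on the log2 scale at an adjusted p under 0.05 gave a wider view. The 1539 genes higher at EN in that line had a median EN minus ED difference of 1.48 in Col-0 and 1.51 in sesquiα2, and a median interaction of −0.05, which has the opposite sign to the difference of the medians. The 1835 genes lower at EN had medians of −1.56 and −1.30, and a median interaction of 0.22. With median-ratio scaling, which removes the shift of all genes, the medians of the interaction were −0.17 and 0.09.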

How the data were processed

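RNA was sequenced from 18 libraries, of which the 12 of Col-0 and sesquiα2 were compared and the 6 of SnRK1α1-OE used for 1 look-up. The authors aligned reads to TAIR10 with HISAT2 and SAMtools, counted genes with featureCounts and normalised them with edgeR, and the deposited signal values are edgeR pseudo-counts times the TMM factor. Whether counting used strand is not given in the sources used here. Whole reads were recovered for 590994 of 590994 values (tolerance 1e-06). Values were tested as log2(value + 1) with limma 3.58.1 in R 4.3.3, with 4 group means, trended and robust variance and Benjamini-Hochberg correction over 20122 genes. edgeR 4.0.16 on the recovered reads was an added alternative. Libraries are separate pools, and the p-values set a difference against the spread between pools within the 4 groups. Named genes were the 10 largest called interactions in each direction with a group mean of at least 50, up to 4 called members of each list, and genes the study names. Members and lists were chosen with earlier results of these data known. RefSeq matched 32548 of 32833 gene IDs. The fitting code was tested on simulated data.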

Additional observations from a re-analysis of the deposited data

Results flagged for a closer look

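Each gene below was picked out because the sesquiα2 minus Col-0 difference was tested to differ between ED and EN by limma (adjusted p under 0.05). The values are interactions on the log2 scale. Positive values among the largest changes were 3.91 for MIOX4, 3.65 for CCR2, 3.15 for AT1G56710, 2.85 for NCED3, 2.78 for AT1G02460, 2.78 for AT2G18193, 2.73 for NAC096, 2.58 for CXE17, 2.53 for PORA and 2.45 for AT3G27970. Negative values were −3.73 for CSLA01, −2.73 for BT1, −1.85 for RR16, −1.77 for AT2G29670, −1.65 for RVE2, −1.65 for BT2, −1.64 for AT2G29300, −1.59 for AT5G59400, −1.58 for ENH1 and −1.57 for OXS3. Sulfur and glucosinolate genes had 1.82 (LSU3), 1.43 (GGCT2;1), 1.101 (APR1), 1.74 (CYP79F1), 1.38 (CYP79F2) and 1.098 (CYP83A1). Iron-responsive genes had −0.82 (HEMA1), −1.49 (NEET) and −1.09 (FER1). The others were TPPJ with 1.43, GI with 1.36, SZF1 with 1.67, ERD10 with 0.75, BAM3 with −0.96 and ERF107 with −1.08.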

How the results depend on the processing

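All 164 called genes kept their sign under every alternative in which they were tested, while the number called varied. A kept sign was likely for genes called from the same libraries, so it is no further test of them. Without a filter on low values 58 genes were called (27 positive, 31 negative), and 129 at ED and 295 at EN. A fit to all 18 libraries called 384 (221 and 163) and 652 at ED. Variance without a trend called 20 (10 and 10) and 184 at ED. The replicate block called 64 (35 positive, 29 negative), 51 of them among the 164. Same-numbered libraries had correlations of −0.377 to 0.338, 8 of 18 pairs were over 0.1, and 5 of 12 libraries correlated best with their own number, so the numbers were not taken as pairing. Median-ratio scaling called 46 positive and 126 negative genes, quantile normalization 52 and 132, and edgeR 58 and 152. With Col-0 ED replicates 2 and 3 left out, chosen after seeing the data, 11 genes were called (2 and 9), 51 at ED, and the interaction of FSD1 was −0.73. With 1 library left out the counts ran from 7 to 1564, positive from 1 to 1195, negative from 5 to 369, at ED from 105 to 1884 and at EN from 156 to 855, and the interaction of AT3G01345 from −0.43 to 0.0114. A smaller and a larger pseudocount, a minimum of 50 and variance without the robust option stayed within 1.5 times the count. The causes were not tested. With 3 pools a group, and few reads for CSLA01, GI and ERF054 at EN, such fold changes are imprecise.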
